A study of Rattus norvegicus with 3 samples.

Results

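The genes described here act in the response of cells to low oxygen. They were Hif1a, which encodes the oxygen-regulated subunit of hypoxia-inducible factor 1, and Vegfa, Adm, Slc2a1, Slc2a3, Pfkfb3, Pfkfb4, Egln3, Bnip3 and Pdk1, which hypoxia-inducible factors (HIF) are known to induce. They were chosen by name, and a probe was assigned to a gene when its accession matched the gene's rat RefSeq symbol. All 10 genes were found among the 16654 genes with a symbol on the arrays, with 19 probes read from 38 spots.

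Male Wistar rats aged 9 weeks underwent transient right middle cerebral artery occlusion (MCAO) or sham surgery, and cerebellar cortex was taken 2 days later. In the MCAO group the same rats gave both the left cortex, called contralateral, and the right cortex, called ipsilateral, and the left cerebellar cortex of the sham-operated rats was the control. Tissue of 4 rats was pooled for each array and there was 1 array per group, so no test could be made and every difference is one between pools. The study concerned crossed cerebellar diaschisis, in which a cerebral lesion lowers blood flow and metabolism in the opposite cerebellar hemisphere, and the comparisons ask whether oxygen-regulated genes differed there. The scanner software marks a spot as well above background when its signal clearly exceeds that of the glass around it. It did so for 42470 (contralateral), 43028 (ipsilateral) and 43283 (control) of the 58717 non-control spots.

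HIF is a pair of proteins, an alpha subunit such as the product of Hif1a or Epas1 and a partner such as that of Arnt. With oxygen present, prolyl hydroxylases of the Egln family mark the alpha subunit for ubiquitination by the Vhl complex and degradation, so that HIF is controlled mostly through its protein and less through its mRNA. When oxygen falls, HIF binds short DNA elements near its target genes and raises glucose uptake, glycolysis, vessel growth and vessel dilation, while it lowers the entry of pyruvate into mitochondria.

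Adm and Slc2a1 were higher, and Vegfa was lower, in the cerebellar cortex of both sides after MCAO than in the control group, each by less than 1 on the log2 scale. Slc2a3 was lower on the contralateral side. The mRNA of Egln3 and Bnip3 lay within the scanner error of the control on both sides. Pfkfb4 had a log2 ratio above 1 in the contralateral cerebellar cortex, but this came from 1 of its 2 probes, and the other probe gave nearly the same signal on all 3 arrays.

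A log2 ratio is the difference of the log2 signals of 2 arrays, so that 1 means a doubling. Genes were counted as past the threshold beyond 1 or -1, the cut-off that the study used. By this rule 1 of the 10 genes, Pfkfb4, was higher in the contralateral cerebellar cortex than in the control group and 0 were lower, where 3.15% of all genes with a symbol were higher and 4.82% were lower. In the ipsilateral cerebellar cortex 0 of the 10 genes passed the threshold, against 8.95% of all genes higher and 2.04% lower. Between the contralateral and the ipsilateral side, Pfkfb4 alone was higher and 0 were lower, against 1.3% and 9.91%. Many of the calls among all genes came from dim spots. The 11250 genes whose probes were all well above background everywhere gave 0.8% higher and 0.658% lower for the contralateral side. The corresponding shares were 1.68% and 0.427% on the ipsilateral side, and 0.169% and 1.01% between the sides. Of the 10 genes, 9 had all probes above that level on all 3 arrays, and Pfkfb3 had 1 probe of 2 below it.

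A finer yardstick is the error that the scanner software gives for each spot, which was about 0.20 on the log2 scale for a ratio of well-measured spots. It covers neither the variation between rats nor that between hybridisations, so a ratio beyond it is not shown to differ between the groups. Beyond this error, 3 of the 10 genes were higher in the contralateral cerebellar cortex (Adm, Slc2a1 and Pfkfb4) and 2 were lower (Vegfa and Slc2a3), against 11.5% and 15% of all genes. In the ipsilateral cerebellar cortex 2 were higher (Adm and Slc2a1) and 1 was lower (Vegfa), against 20% and 11.6%. These counts place Pfkfb3 within the error because its measurable probe, lower beyond its own error on both sides, is averaged with a probe that was not above background. The median log2 ratio of the 10 genes was -0.10 contralaterally and 0.06 ipsilaterally, and that of all genes was 0.02 and 0.07. The median of the 11250 genes well above background, 0.01 and 0.02, served as the reference median for comparing processing alternatives. Relative to it, the median of the 10 genes changed sign with the brightest probe on the contralateral side and with quantile normalization and both filters on dim probes on the ipsilateral side. Both comparisons use the same control array, so an error in that array enters both.

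**Figure D1:**
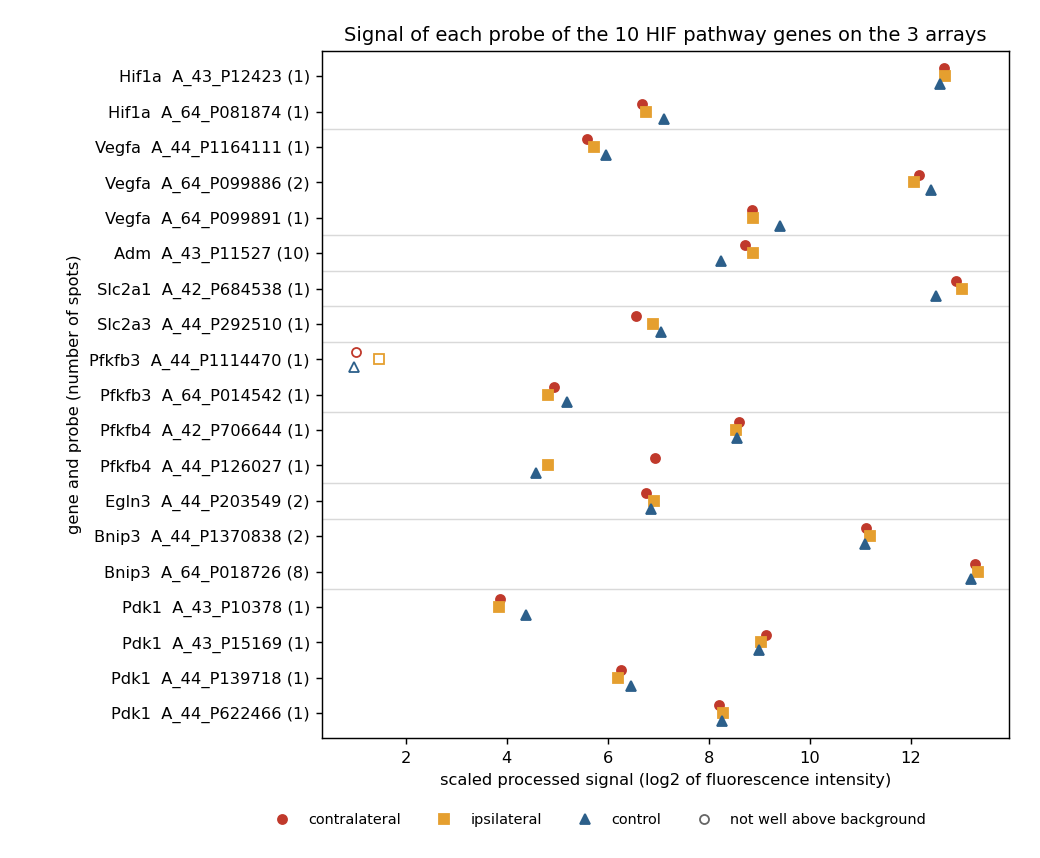
Scaled processed signal (log2 of fluorescence intensity) of each probe of the 10 genes on the contralateral, ipsilateral and control arrays, with the number of spots per probe in parentheses and open symbols where the probe was not well above background. Within each row the 3 symbols lie close together except for Pfkfb4 probe A_44_P126027, which read 6.95 contralaterally, 4.81 ipsilaterally and 4.58 on the control array.

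Sequences before the start sites of these genes were read from RefSeq (build GRCr8), which gave a window for 9 of the 10 genes; Slc2a3 was not among them. The core letters of the HIF element were searched as ACGTG and as GCGTG, on both strands, in the 250 bases before each start site. The letters CACGTG hold ACGTG on both strands and were counted on each. At least 1 of these motifs was present in 36.7% of all 33469 windows of that length, ACGTG in 16.6% and GCGTG in 25.9%. Of the 9 genes, 4 had ACGTG (Hif1a, Slc2a1, Pfkfb3 and Bnip3), 3 had GCGTG (Slc2a1, Bnip3 and Pdk1), and 5 had either. The windows of Vegfa, Adm, Pfkfb4 and Egln3 did not hold these letters. Stretches of 60 bases are shown for genes whose signals differed from the control (Slc2a1, Adm, Vegfa and Pfkfb4) and for Bnip3, whose signal did not differ beyond the scanner error, with motif letters in capitals, where CACGC is GCGTG read from the other strand. The Slc2a1 stretch is chr5:138002443-138002502 (plus strand), and that of Bnip3 is chr1:203155030-203155089 (minus strand). Those without the motif are chr1:174180140-174180199 for Adm, chr9:22452794-22452853 and chr9:22460218-22460277 for 2 start sites of Vegfa, and chr8:118526106-118526165 for Pfkfb4, all on the plus strand.
Slc2a1: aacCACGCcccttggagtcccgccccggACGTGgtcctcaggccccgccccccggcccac
Bnip3: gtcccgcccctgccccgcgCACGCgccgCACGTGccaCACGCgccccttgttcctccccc
Adm: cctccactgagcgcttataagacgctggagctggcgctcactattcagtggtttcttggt
Vegfa, start site 1: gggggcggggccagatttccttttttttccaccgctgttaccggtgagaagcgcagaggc
Vegfa, start site 2: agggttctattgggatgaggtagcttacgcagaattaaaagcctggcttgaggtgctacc
Pfkfb4: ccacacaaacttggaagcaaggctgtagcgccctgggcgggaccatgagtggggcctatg
Slc2a1 held both motifs and Adm neither, and both genes were higher than in the control group. Bnip3 also held both, and its signal lay within the scanner error of the control. A match is a run of letters and does not show that HIF binds there. Sequence outside these 250 bases was not searched, so the lack of a match does not show that a gene lacks a HIF element.

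Among the regulators, Hif1a was read by 2 probes that disagreed. Probe A_43_P12423 had a log2 signal of 12.65 contralaterally, 12.67 ipsilaterally and 12.57 on the control array. Probe A_64_P081874 read 6.68, 6.76 and 7.11 in the same order. By the first probe the log2 ratio to the control was 0.08 contralaterally and 0.10 ipsilaterally, each with a scanner error of 0.20. By the second it was -0.43 and -0.35, with an error of 0.21. The bright probe thus placed Hif1a within the error of the control and the dim probe placed it lower on both sides. Their mean, -0.18 and -0.13, lay within the error, and its direction turned when the brightest probe alone was used.

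Of the 5 HIF subunit genes, 4 contralaterally and 3 ipsilaterally lay within the scanner error, as did 12241 and 11396 of all 16654 genes. All 5 measured subunit genes had a contralateral log2 ratio below 0, with a median of -0.18, and 4 of 5 were below 0 on the ipsilateral side, with a median of -0.10, where 53.2% and 60.8% of all genes were above 0. Epas1, which encodes the alpha subunit HIF-2 alpha and is strongly expressed in endothelial cells, was the lowest. Its signal was 128 on the contralateral, 132 on the ipsilateral and 181 on the control array. Both sides thus lay below the control by ratios of -0.50 and -0.46 with an error of 0.21. These ratios shrank to -0.35 and -0.22 with 50 added to the signal. Arnt2, the neuronal partner of the alpha subunits, had ratios of -0.13 and -0.10, within the error of 0.21. Arnt, the general partner, read 4.63, 5.23 and 4.84 and had ratios of -0.21 and 0.40 with errors of 0.29 and 0.27, so that it was above the control beyond the error on the ipsilateral side. Its probes disagreed contralaterally, with A_43_P11561 at -0.48 (error 0.37) and A_64_P129473 at 0.07 (error 0.22), and were both above 0 ipsilaterally, at 0.50 and 0.29. Of the Arnt2 probes, A_44_P591370 was at -0.18 and -0.23 and A_64_P368731 at -0.08 and 0.02. With quantile normalization, normexp, 50 added or the brightest probe, the medians of the 5 genes stayed below the reference median, with as few as 3 of the genes below it.

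Egln3, a prolyl hydroxylase that is itself induced by HIF, read 6.76 (contralateral), 6.91 (ipsilateral) and 6.86 (control) on the log2 scale. Its ratios of -0.09 and 0.06 were within the error of 0.21. Egln2, another hydroxylase of this family, was close to the control as well, at 0.12 and 0.09. Hif1an, an asparaginyl hydroxylase that blocks the coactivator contact of HIF, had the lowest contralateral ratio of the oxygen sensors, -0.38 with an error of 0.27, and an ipsilateral ratio of -0.26 with an error of 0.29. None of the 7 measured genes of oxygen sensing and HIF degradation passed the threshold. Over all genes 3.15% were above and 4.82% below it contralaterally, and 8.95% and 2.04% ipsilaterally. Within the scanner error were 6 of the 7 contralaterally and 7 ipsilaterally, as were 12241 and 11396 of all 16654 genes. Cited2, which competes with HIF for its coactivators, read 9.98, 10.03 and 9.68. It was above the control by 0.30 and 0.35 with an error of 0.20, but with normexp only by 0.15 and 0.19 relative to the reference median. Crebbp, one of those coactivators, was within the error at 0.12 and 0.06.

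Among the secreted targets, Vegfa, the growth factor of vessel sprouting, was lower by all 3 probes. Probe A_64_P099886, read from 2 spots, had log2 signals of 12.17 on the contralateral, 12.06 on the ipsilateral and 12.39 on the control array. Probe A_64_P099891 read 8.86, 8.88 and 9.42, and probe A_44_P1164111 read 5.59, 5.73 and 5.97. On every probe the control array was the highest of the 3. Contralateral ratios were -0.23, -0.56 and -0.38 and ipsilateral ratios were -0.33, -0.53 and -0.24, in the order of the probes given. Each was beyond its scanner error of 0.20 to 0.23. The gene value, the mean of its probes, was -0.39 and -0.37 with an error of 0.21.

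Adm encodes adrenomedullin, a peptide that dilates vessels. Its 1 probe was printed in 10 spots, and the log2 signal was 8.72 on the contralateral, 8.88 on the ipsilateral and 8.24 on the control array. The log2 ratio to the control was 0.48 on the contralateral side (SD 0.09 over the 10 spots) and 0.64 on the ipsilateral side (SD 0.08). All 10 spots were above 0 in both comparisons, and they lay between 0.32 and 0.65 on the contralateral side and between 0.48 and 0.77 on the ipsilateral side. The spread over spots covers the array only. Calcrl, part of its receptor and named because of its values, was higher on the ipsilateral side by 1.10 with an error of 0.39, and its contralateral signal was too dim to be measured. From the same role list, Ramp2 was at 0.14 and 0.06 and Ramp3 at -0.08 and -0.07, within the error of 0.20.

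Angptl4, a secreted regulator of lipoprotein lipase, was the only pathway gene outside the 10 that passed the threshold with all its probes well above background on all 3 arrays. Its log2 signal was 10.81 on the contralateral, 10.88 on the ipsilateral and 9.88 on the control array, and the ratio was 0.93 and 1.001 with an error of 0.20. Both sides of the MCAO group were thus higher by about the same amount, and the ipsilateral side lay at the threshold itself. Edn1, the vessel-constricting peptide endothelin-1, read 3.85, 4.74 and 4.61, so the contralateral side alone was low, at -0.76 with an error of 0.32, against 0.13 on the ipsilateral side. Kdr, the main receptor of Vegfa in endothelium and chosen after its values were seen, was at -0.66 and -0.77 with an error of 0.20. Relative to the reference median it was at -0.67, -0.73 and -0.68 contralaterally with quantile normalization, normexp and 50 added. Flt1, the other Vegfa receptor measured, was level at 0.04 and 0.02 over 4 probes, with errors of 0.24 and 0.25.

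Endothelial markers are given beside Vegfa, Kdr and Epas1. All 8 endothelial markers had a contralateral log2 ratio below 0 and 6 of 8 an ipsilateral one, with medians of -0.22 and -0.12. Beyond the scanner error 4 of 8 were lower contralaterally, and ipsilaterally 3 were lower and Cdh5 was higher, at 0.43 with an error of 0.21. Their summed signal was 4852 on the contralateral, 5076 on the ipsilateral and 5642 on the control array, a log2 ratio of -0.22 and -0.15, and none was below background. Cldn5, the most abundant of them, had ratios of -0.19 and -0.14. The part of endothelial content in the values of Vegfa, Kdr and Epas1 was not tested. In pooled tissue RNA, fewer cells of a type and less RNA per cell cannot be told apart.

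**Figure D2:**
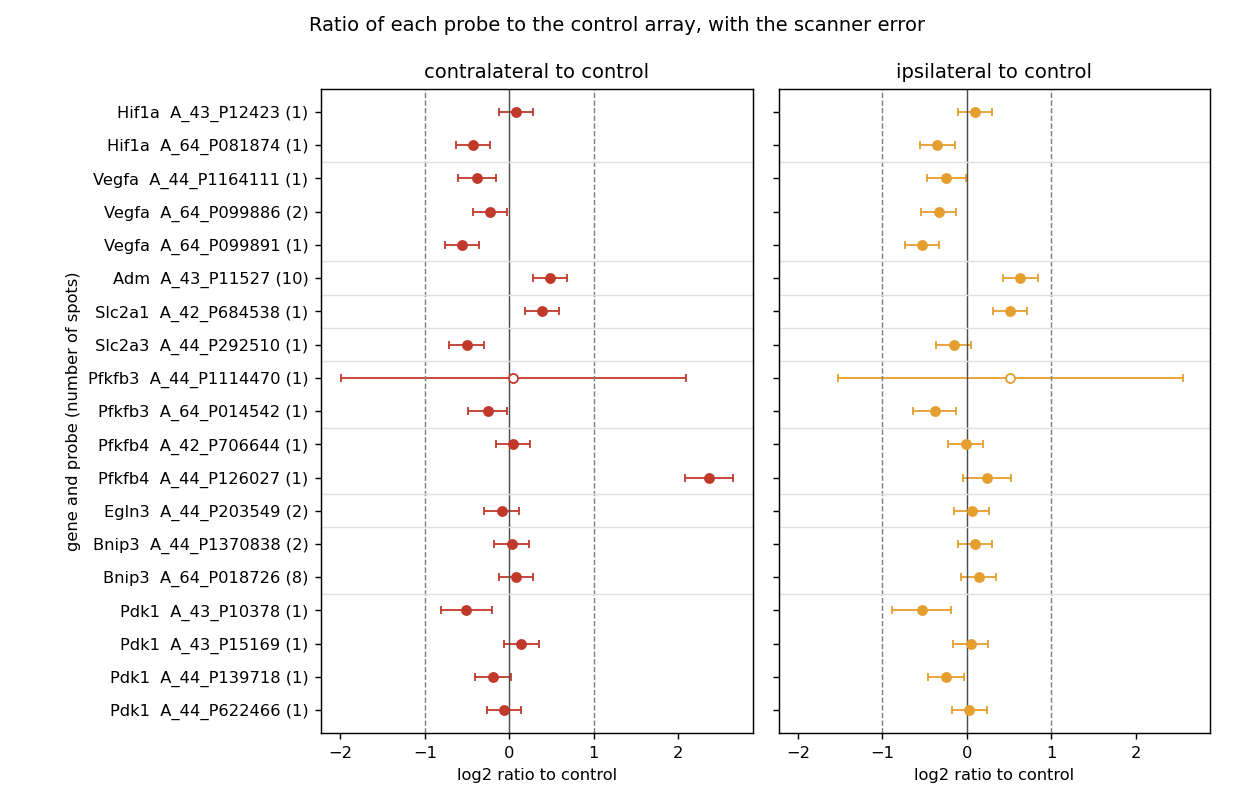
Log2 ratio to the control array of each probe of the 10 genes, on the contralateral (left panel) and ipsilateral side (right panel), with bars of 1 scanner error, dashed lines at the threshold of 1 and -1 and open symbols where a probe was not well above background. Pfkfb4 probe A_44_P126027 lies at 2.37 on the contralateral side, the 3 Vegfa probes lie below 0 and Adm and Slc2a1 above 0 in both panels, and the probes of Hif1a and Pdk1 lie on both sides of 0.

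Glucose transporters went different ways. Slc2a1, the transporter of the blood-brain barrier and of glia, had log2 signals of 12.88 on the contralateral, 13.01 on the ipsilateral and 12.50 on the control array. Its ratios to the control were 0.39 and 0.51 with an error of 0.20, from 1 spot. Both sides were thus higher, except that the unscaled ipsilateral ratio was -0.02, where the reference median was -0.52. Slc2a3, the neuronal transporter, read 6.56, 6.91 and 7.06, and its ratios were -0.50 and -0.15 with an error of 0.21. Slc2a3 was therefore low on the contralateral array, and the ipsilateral array did not differ from the control beyond the error. Slc16a1, which carries lactate and is found in endothelium and glia, was lower on both sides, at -0.53 and -0.53 with errors of 0.20 and 0.21. The cell types behind the values of these transporters were not measured.

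Pfkfb3 and Pfkfb4 encode enzymes that set the level of fructose 2,6-bisphosphate, an activator of glycolysis. Pfkfb4 was read by 2 probes of 1 spot each. Probe A_44_P126027, matched to a curated transcript, had log2 signals of 6.95 on the contralateral, 4.81 on the ipsilateral and 4.58 on the control array. Probe A_42_P706644, matched to a predicted transcript, read 8.60, 8.54 and 8.56. The first probe gave ratios of 2.37 and 0.24 with errors of 0.28 and 0.29, and the second gave 0.04 and -0.02 with an error of 0.20. The first was thus high on the contralateral array alone, 5.16-fold over the control, and the second did not differ between the arrays. The gene value, 1.21 and 0.11, is the mean of these unlike readings, and it was 0.04 on the contralateral side with the brightest probe alone. Whether the probes read different transcripts was not tested.

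Pfkfb3 was measured by 1 probe only. Probe A_64_P014542 read 4.95 (contralateral), 4.82 (ipsilateral) and 5.20 (control) on the log2 scale, and its ratios were -0.26 and -0.38 with errors of 0.23 and 0.25. Probe A_44_P1114470 was not well above background on any array, with scanner errors of 2.05 and 2.04, and the mean of both probes (-0.10 and 0.06) changed sign when it was left out on the ipsilateral side. Pfkfb1, the liver and muscle isozyme, was low on the contralateral array alone, at -0.72 with an error of 0.30, against 0.04 on the ipsilateral side.

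The 14 glycolytic enzymes measured had a median near 0 and single genes away from it. The median log2 ratio was -0.04 on each side. Of the 14 enzymes 0 passed the threshold. Over all genes 3.15% were above and 4.82% below it contralaterally, and 8.95% and 2.04% ipsilaterally. Of the enzymes, 9 contralaterally and 12 ipsilaterally lay within the scanner error. Contralaterally 3 were higher and 2 lower beyond it, and ipsilaterally 2 were higher and 0 lower, where the shares of all genes were 11.5% and 15%, then 20% and 11.6%. Pfkl, the liver-type subunit of phosphofructokinase, read 8.92 on the contralateral, 8.44 on the ipsilateral and 8.30 on the control array and was highest of the group on the contralateral side, at 0.62 with an error of 0.20 (0.38 with normexp), against 0.14 on the ipsilateral side. Ldha, the lactate dehydrogenase subunit that HIF induces, was lowest there at -0.25, and was at -0.11 on the ipsilateral side. Hk2, the hexokinase most often induced by HIF and chosen after its values were seen, was dim and was above the control on both sides, at 0.52 and 0.95 with an error of 0.35. Its ratios shrank to 0.30 and 0.60 with normexp and to 0.24 and 0.63 with 50 added. Aldoc, the brain isozyme of aldolase, was chosen after its values were seen. It was read from 10 spots and was also above the control, at 0.27 and 0.44 with an error of 0.20.

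Pdk1 encodes a kinase that shuts pyruvate dehydrogenase and thereby keeps pyruvate out of the mitochondrion. Its 4 probes disagreed. Probe A_43_P15169 had log2 signals of 9.14 on the contralateral, 9.04 on the ipsilateral and 9.00 on the control array, and probe A_44_P622466 read 8.20, 8.29 and 8.26. Probe A_44_P139718 read 6.27, 6.21 and 6.46, and the dimmest, A_43_P10378, read 3.87, 3.85 and 4.38. The dimmest probe was lower on both sides, at -0.51 and -0.53 with errors of 0.30 and 0.35. Probe A_44_P139718 was also lower ipsilaterally, at -0.25 with an error of 0.22, and was within its error contralaterally. The 3 brighter probes lay between -0.19 and 0.14 on the contralateral side and between -0.25 and 0.04 on the ipsilateral side. The gene value was -0.15 and -0.18, within its error of 0.23 and 0.24. Pdk3, a related kinase, was above the control on the contralateral side at 0.43 with an error of 0.20 (0.25 with normexp), and at 0.12 on the ipsilateral side.

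Bnip3, a mitochondrial protein that triggers the removal of mitochondria, was read by 2 probes that concurred. Probe A_64_P018726, with 8 spots, read 13.26 (contralateral), 13.32 (ipsilateral) and 13.18 (control) on the log2 scale, and A_44_P1370838, with 2 spots, read 11.11, 11.18 and 11.08. The gene ratios were 0.05 and 0.12 with an error of 0.20. Bnip3 was therefore near the control on both sides. Its relative Bnip3l was similar, at 0.19 and 0.12, and Cox4i2, a HIF-induced subunit of cytochrome oxidase, was at -0.00 and 0.03. The direction of Cox4i2 relative to the reference median flipped with quantile normalization contralaterally, and with normexp and with 50 added ipsilaterally. The 7 mitochondrial genes had a median of 0.12 on each side, and 0 passed the threshold. Over all genes 3.15% were above and 4.82% below it contralaterally, and 8.95% and 2.04% ipsilaterally.

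Of the 6 genes with several probes, the probes pointed in 1 direction for 3 genes (Vegfa, Pfkfb4 and Bnip3) on the contralateral side and for 2 (Vegfa and Bnip3) on the ipsilateral side. The highest and the lowest probe of a gene lay apart by more than their combined scanner error for 4 genes on the contralateral side and for 2 on the ipsilateral side. The gap was 2.32 for Pfkfb4, 0.65 for Pdk1, 0.51 for Hif1a and 0.33 for Vegfa on the contralateral side. For Adm, Slc2a1, Slc2a3 and Egln3 there was 1 probe each, so no second probe could check them.

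In the wider pathway, 82 further genes were listed by role and 77 were measured, of which 67 had all probes well above background on all 3 arrays. On the contralateral side 2 of the 77 were above the threshold and 0 below it, and on the ipsilateral side 7 were above and 0 below. Over all genes the shares were 3.15% above and 4.82% below, then 8.95% and 2.04%. Neither of the 2 was well above background on any array. Of the 7 on the ipsilateral side, 6 were not well above background on at least 1 array. For Car12, a carbonic anhydrase, the ipsilateral signal was at least 2.79-fold above the control, the bound being set by the lowest signal well above background on the control array. Car12 is named because of its values.

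Beyond the scanner error, 16 of the 77 genes were higher and 15 lower on the contralateral side, and 15 were higher and 7 lower on the ipsilateral side. As percentages these were 20.8% and 19.5%, then 19.5% and 9.09%, beside the 11.5%, 15%, 20% and 11.6% of all genes given above. Their median log2 ratio was -0.00 contralaterally and 0.04 ipsilaterally, and the former changed sign relative to the reference median with quantile normalization, normexp, 50 added, the brightest probe and outlier spots kept. Hmox1, the heme-degrading enzyme, read 7.62 on the contralateral, 7.94 on the ipsilateral and 7.12 on the control array, above the control by 0.50 and 0.81 with an error of 0.21. Tf, which carries iron, was lower, at -0.43 and -0.47 with an error of 0.20. Ddit4, an inhibitor of mTOR signalling, was higher by both of its probes, with gene ratios of 0.49 and 0.47 and an error of 0.20. Loxl2, a collagen cross-linking enzyme, was low on the contralateral array alone, at -0.72 with an error of 0.23, against 0.01. Relative to the reference median, the ipsilateral direction flipped for Hif1an and Loxl2 with normexp and with 50 added, and for Edn1 and Pfkfb1 with quantile normalization. The low contralateral ratios of these dim genes shrank with normexp and with 50 added, to -0.07 and -0.12 for Edn1, -0.16 and -0.14 for Pfkfb1, -0.30 and -0.25 for Loxl2 and -0.02 and -0.06 for Hif1an.

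**Figure D3:**
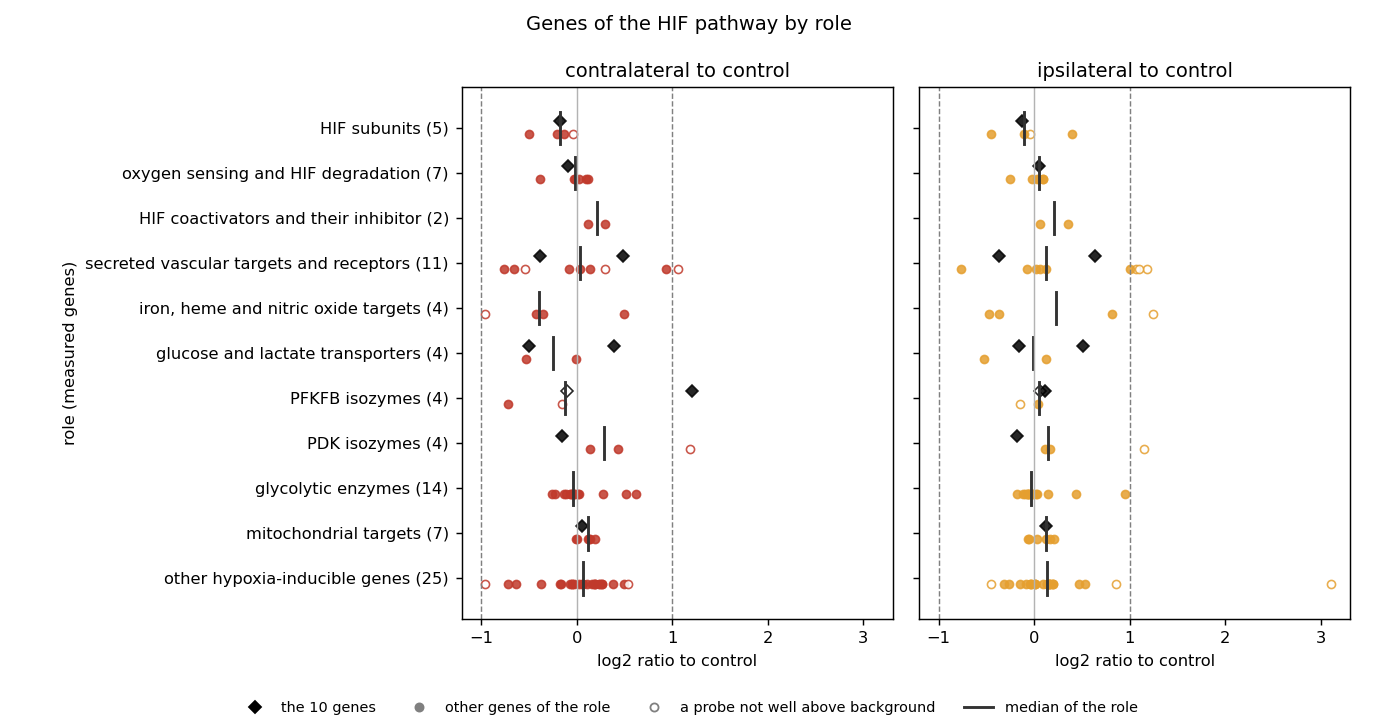
Log2 ratio to the control array of the measured genes of each role in the HIF pathway, on the contralateral (left panel) and ipsilateral side (right panel), with diamonds for the 10 genes, circles for the others, open symbols where a probe was not well above background, short bars for the median of a role and dashed lines at 1 and -1. The medians lie between -0.39 and 0.28 on the contralateral side and between -0.10 and 0.22 on the ipsilateral side, and the symbols beyond the dashed lines are open except for Pfkfb4 and Angptl4.

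Between the contralateral and the ipsilateral side, which came from the same rats, 8 of the 10 genes had a ratio within the scanner error. Slc2a3 had a lower signal on the contralateral array, at -0.35 with an error of 0.21, and Pfkfb4 was higher at 1.09 with an error of 0.25, by probe A_44_P126027 alone (2.13, against 0.06 by the other). Beyond this error, 4.73% of all genes were higher and 17.9% lower. Adm, Slc2a1 and Vegfa differed between the sides by -0.16, -0.12 and -0.02, each within the error of 0.20 to 0.21. These genes were taken up here because both sides differed from the shared control array in the same direction. A smaller difference between the sides follows in part from that choice.

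Most of the listed genes known to respond to glucocorticoids were higher on both sides. They are set beside Adm, Slc2a1, Angptl4 and Ddit4, which were picked for being high on both sides. Of 7 such genes, 6 had ratios above the scanner error on each side, against 11.5% and 20% of all genes. Dusp1 was within its error, at -0.15 and -0.10. The medians of the 7 were 0.59 and 0.65. Their summed signal was 13337 on the contralateral, 13519 on the ipsilateral and 8622 on the control array, and the most abundant, Klf9, was at 0.54 and 0.53. Each of them had a probe well above background on every array. Their part in the values of the hypoxia-inducible genes was not tested.

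Microglial markers differed among themselves. Their summed signal was 7350 (contralateral), 9093 (ipsilateral) and 5796 (control), and it was carried by C1qa, the most abundant, at 0.47 and 0.75, and Cx3cr1, at 0.78 and 1.27. Beyond the scanner error 3 of 7 were higher on each side, and Aif1 was lower contralaterally at -0.29 with an error of 0.20. The medians of the 7 were 0.21 and 0.08. Hmox1, which microglia and macrophages can express, was higher in the same order of arrays, and the part of these cells in its value was not tested.

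The tissue label fitted the marker genes of cerebellar cortex. All 6 granule neuron markers and all 6 Purkinje cell markers were well above background on every array. The log2 ratio of their summed signals to the control was -0.01 and -0.03 for granule neurons and 0.13 and 0.11 for Purkinje cells. Cbln1, the most abundant granule neuron marker, had log2 ratios of -0.10 and -0.08, and Itpr1, the most abundant Purkinje cell marker, had 0.22 and 0.16. Astrocyte markers summed to log2 ratios of -0.15 and -0.14, with medians of 0.00 and -0.07. Aqp4, the most abundant by its mean over the arrays, was at -0.55 and -0.45. Gfap was the lowest of the list at -0.73 and -0.66, and Gdf10 the highest at 0.39 and 0.27. Forebrain markers summed to 0.28 and 0.26, a sum made mostly of Ppp1r1b at 0.33 and 0.30. Nrgn, a forebrain marker named because of its values, was at 1.83 contralaterally and -0.21 ipsilaterally with errors of 0.22 and 0.24. Of the forebrain markers, Tbr1 was not well above background on any array.

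By summed signal, the choroid plexus and red blood cell lists lay furthest from the control. Choroid plexus markers summed to 10779 on the contralateral, 76737 on the ipsilateral and 34061 on the control array, nearly all of it Ttr, at log2 ratios of -1.73 and 1.19. Over the 8 markers the medians were -0.77 and 0.38, with Slc4a5 at -1.20 ipsilaterally, and Kl did not clear the background contralaterally. Markers of the leptomeninges summed to log2 ratios of -0.15 and 0.07, a sum made mostly of Ptgds at -0.08 and 0.11. Over the 6 markers the medians were -0.64 and -0.30, and 4 were lower beyond the scanner error on each side, among them Col1a1 at -1.26 and -0.61. Pericyte markers summed to log2 ratios of -0.20 and -0.14, with the most abundant, Kcnj8, at -0.09 and -0.00. Their medians were -0.27 and -0.26, with 5 of 5 below 0 on both sides and 3 contralaterally and 2 ipsilaterally lower beyond the scanner error. Red blood cell markers summed to -0.90 and -1.04, with Hba-a1 at -0.88 and -1.03, while Alas2 and Slc4a1 on the contralateral array and Alas2 and Hbb on the ipsilateral array were not well above background. Edn1, Slc2a3, Pfkfb1 and Loxl2 are named here because they were low on the contralateral array alone. A lower contralateral than ipsilateral signal follows from that choice and does not show likeness to choroid plexus or leptomeningeal markers. Between the sides, 17.9% of all genes were lower beyond the scanner error. The part of choroid plexus and leptomeninges in the values of these genes was not tested.

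**Figure D4:**
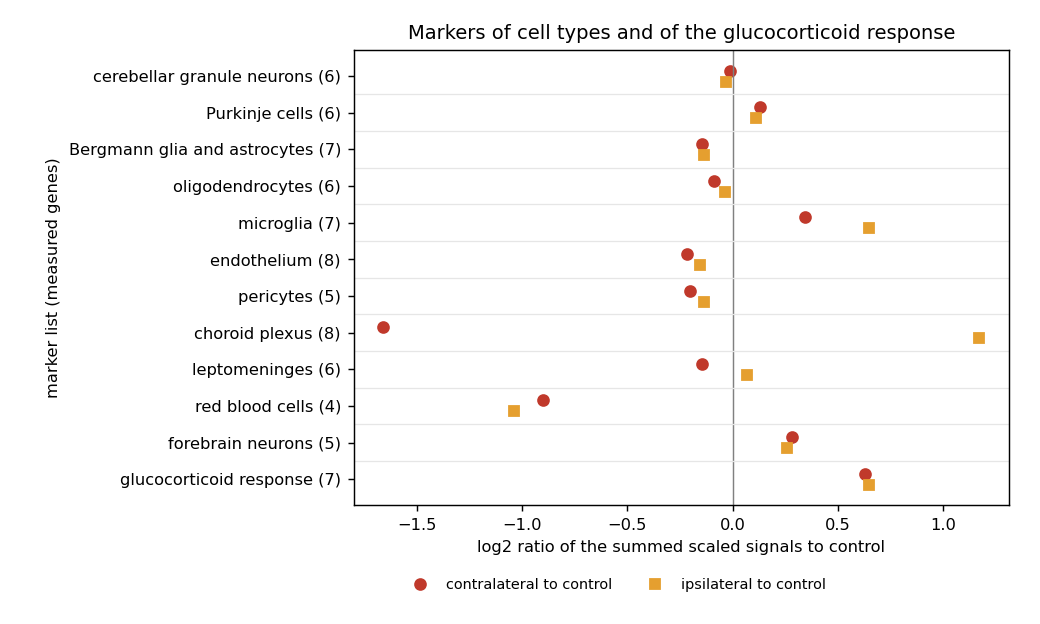
Log2 ratio of the summed scaled signals of each marker list to the control array, for the contralateral (circles) and the ipsilateral side (squares), with the number of measured genes in parentheses. Granule neuron and Purkinje cell lists lie near 0, the choroid plexus list, mostly Ttr, lies at -1.66 and 1.17, and the glucocorticoid response list lies at 0.63 and 0.65.

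Scaling set the level of every ratio. Without scaling, the median log2 ratio of the 11250 genes well above background shifted by -0.15 on the contralateral and by -0.53 on the ipsilateral side, and with spike-in scaling by -0.08 and -0.25. Taken relative to the reference median of the same setting, Adm and Slc2a1 stayed above it and Vegfa and Slc2a3 stayed below it on both sides. This subtraction cancels the 4 alternatives that shift whole arrays (no scaling, median, spike-in and deposited values). For Adm, Slc2a1 and Slc2a3, with 1 probe each, the choice of probes could not change the gene's own ratio either. The settings that could change it, mainly quantile normalization, normexp and 50 added, gave the ranges that follow. Adm ranged from 0.39 to 0.50 on the contralateral and from 0.51 to 0.67 on the ipsilateral side, and Slc2a1 from 0.33 to 0.38 and from 0.41 to 0.49. Vegfa ranged from -0.40 to -0.24 and from -0.39 to -0.28, and Slc2a3 from -0.52 to -0.33 and from -0.17 to -0.05. These 4 genes kept their side under those settings, except that the ipsilateral ratio of Slc2a3 before that subtraction was 0.03 with 50 added, while Hif1a, Pfkfb3 and Pdk1 crossed to the other side under at least 1 alternative in both comparisons.

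**Figure D5:**
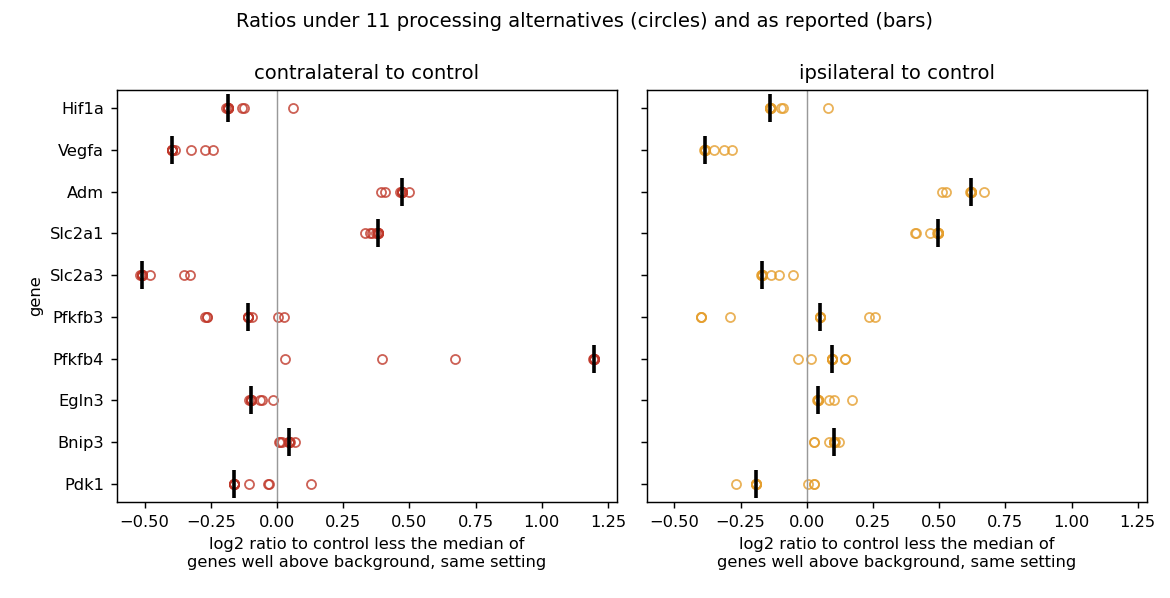
Log2 ratio to the control array of each of the 10 genes less the median of the genes well above background under the same setting, as reported (bars) and under each of 11 processing alternatives (circles), for the contralateral (left panel) and ipsilateral side (right panel). Circles of Adm and Slc2a1 lie above 0 and those of Vegfa and Slc2a3 below 0 in both panels, and those of Pfkfb4 on the contralateral side spread from 0.03 to 1.20.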

How the data were processed

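Cerebellar cortex RNA was measured on 3 one-colour arrays, 1 per group. Spot intensity values came from the authors, who by the file headers read them with Agilent Feature Extraction 12.1.0.3, background-subtracted and corrected for spatial trends, and they also gave a table of the same intensities multiplied by 1 factor per array (1.12 contralateral, 1.45 ipsilateral, 1.04 control). Since 1 slide carried all arrays and 1 scan read them, batches could not be compared.

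Here the log2 processed signals were shifted to a common 75th percentile over non-control spots, 759 outlier spots (2 of them of the 10 genes) were left out, and spots of a probe, then probes of a gene, were averaged. Of 39957 accessions, 17622 matched a symbol in RefSeq (GRCr8). The design had foreseen a gene name column and mean signals for normexp, which were not used here: names came from accessions and normexp used median signals. No test was run. The scanner error of a ratio is the root sum of squares of both arrays' relative spot errors, averaged over spots and not reduced by averaging.

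The 10 genes and the gene lists were chosen with earlier results of these data known. Named genes were the 10 with every probe, pathway genes past the threshold with all probes well above background on all 3 arrays, the highest and lowest contralateral ratio of each role list among such genes, and the most abundant gene of each marker list described. Outside this rule, Arnt, Flt1, Kdr, Hk2, Aldoc, Calcrl, Ramp2, Ramp3, Nos2, Stc2 and Car12 were named after their values were seen. So were the markers Cdh5, Nrgn, Gfap, Gdf10, Cx3cr1, Aif1, Col1a1, Slc4a5 and Dusp1, and the 4 genes of the closing section. The markers Kl, Tbr1, Alas2, Slc4a1 and Hbb were named because they were not well above background on at least 1 array. Unmatched pathway genes were Egln1, Cul2, Ep300, Lox and Bhlhe41. The forebrain marker Emx1 was unmatched. Some marker results are not reported here.

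As alternatives, 11 in number, arrays were left unscaled, scaled by median or by 8 spike-in probes, or quantile-normalized. Others took normexp (offset 50), the deposited table, or signals raised by 50. The rest dropped dim probes by 2 filters, took only the brightest probe, or kept outlier spots. The scripts were checked on simulated data. Software was R 4.3.3 (limma 3.58.1) and Python 3.11.15 (numpy 2.4.6, pandas 2.3.3, matplotlib 3.10.9). Promoter stretches are in GRCr8, and no coordinates from it were used for the arrays, whose header names rn4.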

Additional observations from a re-analysis of the deposited data

How the results depend on the processing

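The count of 1 gene past the threshold on the contralateral side, and likewise of 1 between the sides, became 0 with normexp, with 50 added to the signal and with the brightest probe, and also 0 when every probe of a gene had to pass, a rule chosen after seeing the data. The ipsilateral count of 0 stayed 0 under each of these settings and the others tried. The contralateral count of 2 further pathway genes became 0 with normexp, 0 with 50 added, 4 with the deposited values, 0 with probes well above background on all 3 arrays and 1 with probes above it on at least 1 array. The ipsilateral count of 7 became 4 without scaling, 2 with spike-in scaling, 3 after quantile normalization, 0 with normexp and 0 with 50 added. It became 1 with probes well above background on all 3 arrays and 4 with probes above it on at least 1 array. These pathway counts take both directions together. On the contralateral side, the dim genes Nos2 and Stc2 were below -1 with the deposited values. On the ipsilateral side, Car12 alone of the 7 stayed above 1 without scaling and with spike-in scaling. Kdr was below -1 under both settings (-1.30 without scaling), and Slc16a1 (-1.06) and Tf (-1.01) were below it without scaling. The filters remove dim genes by construction; the cause of the other shifts was not tested. Of 330 values of the 10 genes under the alternatives, 291 stayed within the scanner error of the reported value, 39 lay beyond it and 51 changed sign. The unscaled values gave 14 of these sign changes, spike-in probes 12 and the brightest probe 8. Signals near background limited Pfkfb3 and 10 of the 77 further pathway genes, and most probes were read from 1 spot. With 1 pool per group, no value here separates MCAO from differences between pools. No paired analysis was possible because each group had 1 array.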

Other observations

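Cxcr4, a chemokine receptor induced by HIF in several cell types, had log2 signals of 5.56 on the contralateral, 5.93 on the ipsilateral and 6.19 on the control array, with ratios of -0.64 and -0.26 and an error of 0.22. Igfbp3, a carrier of insulin-like growth factors, read 9.38, 9.71 and 9.19, with ratios of 0.19 and 0.53 and an error of 0.20. Tfrc, the transferrin receptor, was at -0.35 and -0.37 with an error of 0.20. Kdm3a, a histone demethylase induced by HIF, read 7.77, 7.59 and 7.39, with ratios of 0.37 and 0.20 and an error of 0.21. These 4 genes were chosen after their values were seen, and none passed the threshold.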
